A study of Rattus norvegicus with 6 samples.

Results

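The zinc-dependent histone deacetylases are enzymes that remove acetyl groups from lysines with a zinc ion in the active site. Members were the rows of the deposited count table whose symbol was Hdac1 to Hdac10, which gave 10 of 30560 gene rows, 1 for each symbol. All 10 passed the filter on low counts and were among 12614 tested rows. The 6 poly(A) RNA libraries came from wild-type rat mesenchymal stem cells grown in high-glucose DMEM with 10% serum. Every culture first spent 24 hours in 200 nM doxorubicin, an anthracycline that damages DNA and is widely used to drive cells into senescence. In the SMNV group (3 libraries) the next 6 days in fresh medium included 100 µg/ml of a preparation that the labels call SMNV without expanding the name. In the Dox group (3 libraries) those days included vehicle. The sources used here do not give the rat strain, passage or number of donors, nor do they say that the 3 libraries of a group came from separate cultures, so p-values measure the spread between these libraries. No library without doxorubicin was analysed here, and no comparison with undamaged cells is made.

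Class I enzymes (Hdac1, Hdac2, Hdac3 and Hdac8) are mostly nuclear, and the first 3 of them work as the catalytic subunits of corepressor complexes that silence genes by deacetylating histones. Class IIa enzymes (Hdac4, Hdac5, Hdac7 and Hdac9) have weak catalytic activity of their own, bind transcription factors such as those of the MEF2 family, and move out of the nucleus when kinases phosphorylate them and 14-3-3 proteins bind. Class IIb enzymes work largely in the cytoplasm, Hdac6 on tubulin and HSP90 and Hdac10 on acetylated polyamines. In the skeleton, Hdac4 restrains chondrocyte hypertrophy and Hdac5 and Hdac7 bind or restrain the osteoblast factor RUNX2, as known from mice and cell culture.

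The libraries held 18640909 to 21506967 estimated counts. Libraries of the same group correlated at 0.989 to 0.992 (Pearson, log2 CPM) and those of different groups at 0.947 to 0.969, and no library stood apart. The 10 most abundant genes took 17.8% to 19.4% of the counts in SMNV and 14.4% to 15.2% in Dox, and the part of this difference in the results below was not tested. All 9 stromal markers listed for the labelled cell type were tested, with Nt5e lowest at 1.78 ± 0.369 CPM in SMNV and 1.94 ± 0.473 in Dox. Of these, 4 were higher, with Col1a1 at 1.08 and Col1a2 at 1.02 on the log2 scale, and 2 were lower, Cd44 at -1.08 and Itgb1 at -0.64. The summed CPM of all 9 ran from 69907 to 85045 in SMNV and from 38567 to 45206 in Dox. Most of this sum came from Col1a1 and Col1a2, so it does not stand for the other markers. Col1a1 had 41417 ± 5243 CPM in SMNV and 19553 ± 2061 in Dox. For Col1a2 the values were 33523 ± 3481 in SMNV and 16519 ± 1517 in Dox. The part of these differences in the results was not tested. Defining markers of blood and endothelial cells were at or near 0: Ptprc, Cd34, Itgam, Cdh5 and Kdr had no count in any library, and 12 of the 14 markers of these cell types were below the filter. Csf1r, 1 of the other 2, stood at 1.80 ± 0.451 CPM in SMNV and 3.39 ± 0.391 CPM in Dox. The summed CPM of 5 smooth muscle markers ran from 451 to 525 in SMNV and from 237 to 286 in Dox. Without Smtn the sum of the other 4 ran from 152 to 159 in SMNV and from 149 to 178 in Dox, and the groups overlapped. Smtn and Actg2 rose, Des fell, and Myh11 and Cnn1 did not pass. The part of such cells in the results was not tested.

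Hdac7, Hdac5, Hdac10 and Hdac4 rose, Hdac9, Hdac1 and Hdac8 fell, and Hdac2, Hdac3 and Hdac6 did not pass the test. Genes were compared with edgeR's quasi-likelihood test on the estimated counts, with Benjamini-Hochberg adjustment over all 12614 tested rows and a threshold of 0.05, and log2 fold changes are SMNV over Dox. Of the 10 members, 4 were higher and 3 lower, where 30.5% and 29.9% of all tested genes were (60.4% in either direction), so the share called was near that of all genes. The median absolute log2 fold change was 0.52 over the members and 0.36 over all tested genes, and the signed medians were 0.11 and -0.01. In a bulk sample, fewer cells that express a gene and less RNA per cell cannot be told apart.

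**Figure D1:**
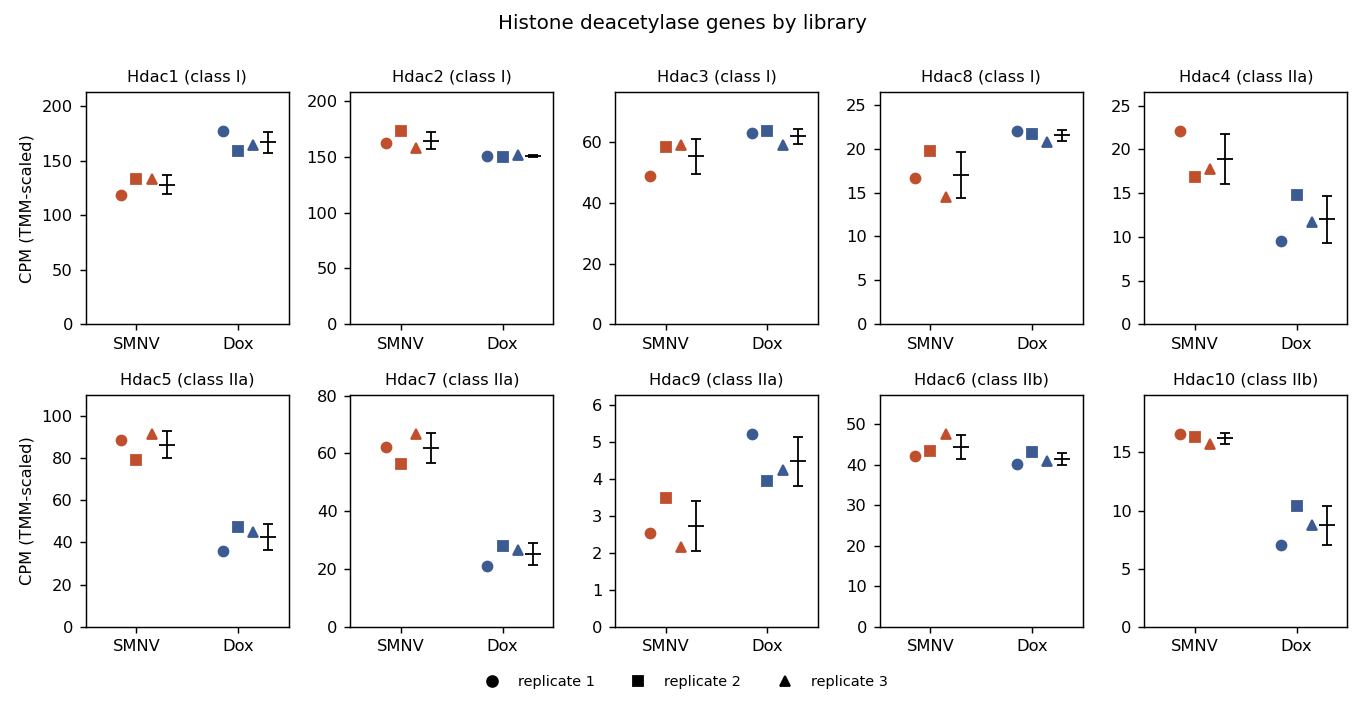
CPM (TMM-scaled counts, y axes, each starting at 0) of the 10 deacetylase genes in the SMNV (left) and Dox (right) libraries, with a symbol for each replicate and the mean ± SD in black (n = 3). In 5 genes every SMNV library lies above every Dox library, in 4 it lies below, and in Hdac6 the groups overlap. Of all tested genes, 33.4% lie above and 33.4% below in this way.

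Promoter windows are shown for the 2 members that rose most, Hdac7 and Hdac5, and for the 2 class I genes that fell, Hdac1 and Hdac8. RefSeq windows run from 250 bases before to 50 bases after an annotated start. All 10 members matched by symbol. The windows are on GRCr8, which is not the mRatBN7.2 build named in the submitters' processing notes, and are printed 5′ to 3′ along the gene's strand. Capitals mark a match, on either strand, to any of 6 motifs. The GC box was searched as GGGCGG and the CCAAT box by the letters of its name. An E-box was searched as CACGTG. For the cyclic AMP response element the letters were TGACGTCA. A cell cycle homology region was searched as TTTGAA, and the TATA box as TATAAA.
Hdac7, chr7:130840968-130841267, minus strand: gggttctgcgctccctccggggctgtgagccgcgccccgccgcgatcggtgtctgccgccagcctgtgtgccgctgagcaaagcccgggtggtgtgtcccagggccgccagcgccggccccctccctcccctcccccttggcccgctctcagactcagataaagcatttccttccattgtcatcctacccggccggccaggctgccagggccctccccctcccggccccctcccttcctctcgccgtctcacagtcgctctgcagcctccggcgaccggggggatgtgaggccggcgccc
Hdac5, chr10:87688005-87688304, minus strand: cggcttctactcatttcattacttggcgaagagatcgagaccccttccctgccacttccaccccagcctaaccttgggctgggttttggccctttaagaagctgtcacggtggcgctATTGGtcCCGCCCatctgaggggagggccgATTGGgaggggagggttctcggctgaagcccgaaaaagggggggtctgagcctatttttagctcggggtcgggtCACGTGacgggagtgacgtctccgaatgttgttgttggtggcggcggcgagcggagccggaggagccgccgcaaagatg
Hdac1, chr5:147165338-147165637, minus strand: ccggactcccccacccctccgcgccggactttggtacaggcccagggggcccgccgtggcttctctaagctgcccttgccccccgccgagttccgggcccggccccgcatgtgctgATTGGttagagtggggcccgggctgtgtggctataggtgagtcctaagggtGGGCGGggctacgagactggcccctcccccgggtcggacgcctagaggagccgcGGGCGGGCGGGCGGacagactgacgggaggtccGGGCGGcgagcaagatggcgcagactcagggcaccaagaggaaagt
Hdac8, chrX:71632816-71633115, minus strand: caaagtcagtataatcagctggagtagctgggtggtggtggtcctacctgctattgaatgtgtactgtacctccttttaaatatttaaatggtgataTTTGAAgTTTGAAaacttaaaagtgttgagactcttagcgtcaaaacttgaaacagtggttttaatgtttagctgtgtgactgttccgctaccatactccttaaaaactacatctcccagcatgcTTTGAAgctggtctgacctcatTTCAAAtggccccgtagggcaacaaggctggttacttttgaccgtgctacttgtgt

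None of the 6 motifs is in the Hdac7 window, which has 72.7% GC and 26 CpG sites. The Hdac5 window (60.7% GC, 22 CpG sites) has 2 CCAAT boxes, 1 GC box and 1 E-box. The Hdac1 window (71.0% GC, 27 CpG sites) has 5 GC boxes, 3 of which overlap in a single run, and 1 CCAAT box. The Hdac8 window differs from these in composition, with 41.3% GC, 4 CpG sites and 4 matches to TTTGAA. Hdac9, which also fell, has 37.0% GC and 2 CpG sites in its window and 1 such match, and none of the other 8 members has one. Across all 33469 windows in the table, GGGCGG is in 33.1%, CCAAT in 37.5%, CACGTG in 6.4%, TGACGTCA in 1.8%, TTTGAA in 18.3% and TATAAA in 14.2%, and the median GC content is 51.7%. These matches are a description of letters in windows.

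On counts, class IIa held both the largest rises and the largest fall of the family (on log2(TPM + 1) values, which understate low genes, Hdac9 changed by -0.44 and Hdac1 and Hdac8 by -0.50 each, and on log2(TPM + 0.1) values Hdac9 changed by -0.69). Hdac7, a class IIa corepressor of MEF2 factors best known from endothelial cells and thymocytes, had 62.2, 56.4 and 66.8 CPM in SMNV 1 to 3, against 20.9, 28.0 and 26.6 CPM in Dox 1 to 3. The lowest SMNV library was above the highest Dox library by a wide margin. Its log2 fold change was 1.30 ± 0.11 (SE, adjusted p = 1.2e-07, edgeR), a fold of 2.46. By p-value it ranked 310 of the 12614 tested rows. Hdac5, a close relative known in heart and bone, had 88.6, 78.9 and 91.4 CPM in SMNV and 35.7, 47.1 and 45.1 CPM in Dox, again with no overlap. It rose 2.03-fold (1.02 ± 0.10 on the log2 scale, adjusted p = 4.8e-07). Hdac4, the class IIa enzyme of growth plate cartilage, had 22.1, 16.8 and 17.8 CPM in SMNV and 9.51, 14.8 and 11.7 CPM in Dox. The closest libraries, SMNV 2 and Dox 2, were not far apart. Hdac4 rose by 0.66 ± 0.15 on the log2 scale (adjusted p = 0.00147), which ranged from 0.51 to 0.83 without each library in turn.

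Hdac9 was the least abundant member and the class IIa gene that moved the other way. The gene also encodes a short form, MITR, which lacks the deacetylase domain, and gene-level counts do not separate the forms. It had 52, 74 and 43 counts (2.55, 3.47 and 2.17 CPM) in SMNV and 107, 75 and 86 counts (5.22, 3.95 and 4.24 CPM) in Dox. The groups did not overlap in CPM, though SMNV 2 came close to Dox 2. Its log2 fold change was -0.71 ± 0.22, past the threshold at an adjusted p of 0.0107. The call ended without SMNV 3 (adjusted p = 0.0523) or without Dox 1 (0.0531).

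Among class I genes, Hdac1 fell and its partner Hdac2 did not pass. Hdac1, a catalytic subunit of the Sin3, NuRD and CoREST complexes, had 118, 133 and 133 CPM in SMNV and 177, 159 and 164 CPM in Dox. Every SMNV library was lower than every Dox library. The log2 fold change was -0.38 ± 0.07 (adjusted p = 2.3e-04), with a 95% interval of -0.53 to -0.23. Hdac2, which sits in the same complexes, had 162, 173 and 158 CPM in SMNV and 150.5, 150.1 and 152 CPM in Dox. Its log2 fold change of 0.12 had a 95% interval of -0.01 to 0.25 (adjusted p = 0.0897), which leaves out a change as large as that of Hdac1 in either direction. A row for Hdac1l, an Hdac1-like copy, held 1 count in SMNV 3 and none elsewhere.

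Hdac3, the catalytic subunit of the NCoR corepressor complex, had 48.8, 58.3 and 59.1 CPM in SMNV and 63.2, 63.7 and 59.2 CPM in Dox. SMNV 3 and Dox 3 were almost level. The log2 fold change of -0.16 ± 0.08 did not pass on counts (adjusted p = 0.0943), and on log2(TPM + 1) values, tested with limma, it was -0.25 and passed (adjusted p = 0.0161). Hdac8, an X-linked enzyme that removes acetyl groups from the cohesin subunit SMC3, had 16.7, 19.7 and 14.5 CPM in SMNV and 22.0, 21.7 and 20.8 CPM in Dox. The SMNV libraries were spread out below the Dox libraries, which lay close together. Its log2 fold change was -0.34 ± 0.11 (adjusted p = 0.0158). The call ended without SMNV 1 (adjusted p = 0.0512) or without SMNV 3 (0.106).

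The class IIb pair differed. Hdac10 had 16.6, 16.3 and 15.7 CPM in SMNV and 7.02, 10.4 and 8.77 CPM in Dox. The SMNV libraries were nearly equal and all above Dox. The log2 fold change was 0.90 ± 0.13 (adjusted p = 4.0e-05), a fold of 1.86. Hdac6, the X-linked deacetylase of alpha-tubulin, cortactin and HSP90, had 42.1, 43.4 and 47.6 CPM in SMNV and 40.1, 43.0 and 40.9 CPM in Dox. These groups overlapped. Its log2 fold change of 0.10 had a 95% interval of -0.07 to 0.27 (adjusted p = 0.277).

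**Figure D2:**
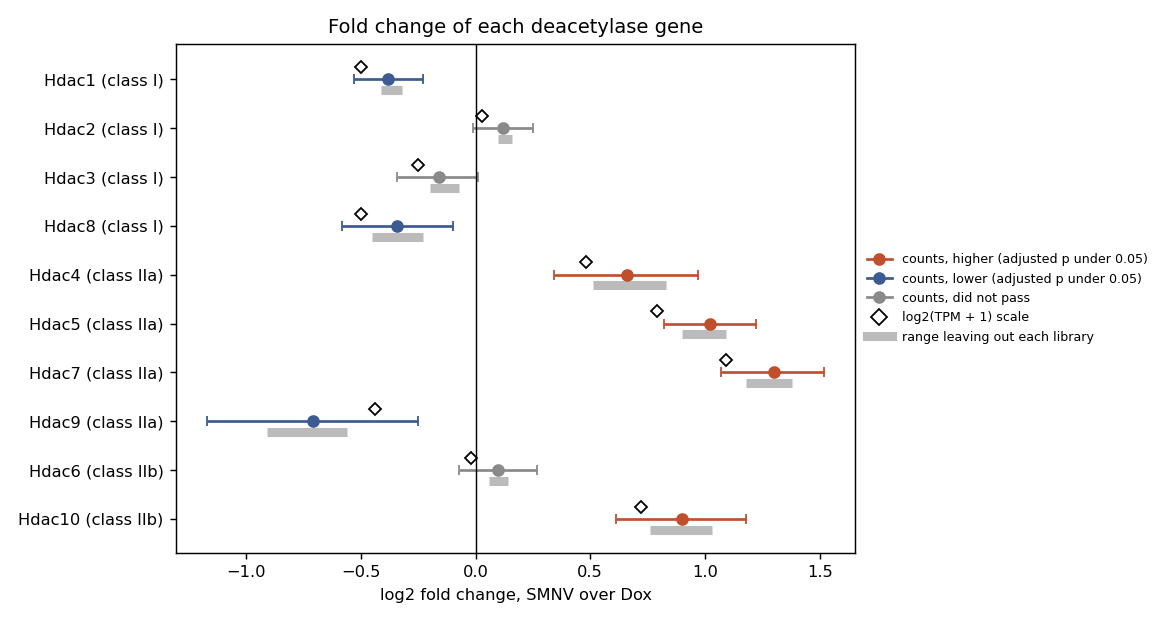
Log2 fold change (x axis, SMNV over Dox) of each deacetylase gene on counts with its 95% interval (circles and bars, coloured by call), on log2(TPM + 1) values (diamonds), and its range when each library is left out in turn (grey bars). Hdac4, Hdac5, Hdac7 and Hdac10 lie right of 0 and Hdac1, Hdac8 and Hdac9 left of 0 on both scales, and Hdac6 lies at 0.10 on counts and -0.02 on the TPM scale.

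The same 4 members were higher on log2(TPM + 1) values (limma), with log2 fold changes of 1.09 for Hdac7, 0.79 for Hdac5, 0.72 for Hdac10 and 0.48 for Hdac4. Hdac1, Hdac8 and Hdac9 were lower by -0.50, -0.50 and -0.44, and with Hdac3 this made 4 of 10 higher and 4 of 10 lower. Of all tested genes, 24.4% were higher and 36.9% lower on that scale (61.3% in either direction), and their median log2 fold change was -0.10 in place of -0.01. Groups did not overlap in CPM for 9 of the 10 members, 5 higher and 4 lower, where 66.9% of all tested genes did not overlap (33.4% higher and 33.4% lower). Fold changes also varied with gene length across the table. Among the 4203 longest tested genes 25.7% were higher and 39.9% lower, and among the 4205 shortest 36.1% were higher and 19.4% lower. The rising class IIa genes are among the longest, at 3922 to 4097 bases, and Hdac8, which fell, is among the shortest, at 1516 bases. The more frequent direction for genes of their length was the other one. Hdac9, among the longest at 3503 bases, moved in the more frequent direction. Hdac6 (3908 bases, among the longest) and Hdac3 (1946 bases, among the shortest) did not pass on counts. The part of length in the results was not tested.

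Within a group the members did not vary alike. In SMNV, Hdac8 and Hdac9 were highest in SMNV 2 and lowest in SMNV 3, by 1.36 and 1.60 times. Hdac5, Hdac7 and Hdac4 were lowest in SMNV 2. In Dox, all 4 of the rising genes were lowest in Dox 1 and highest in Dox 2, with the highest library 1.56 times the lowest for Hdac4, 1.48 for Hdac10, 1.34 for Hdac7 and 1.32 for Hdac5. Hdac6, which did not pass, was also lowest in Dox 1 and highest in Dox 2, by 1.07 times. Hdac1, Hdac8 and Hdac9, which fell, were highest in Dox 1. Over all tested genes, Dox 1 correlated least with each SMNV library (0.947 to 0.958, Pearson, log2 CPM) and Dox 2 most (0.961 to 0.969). SMNV 2 was the SMNV library that correlated most with each Dox library (0.958 to 0.969). The part of these library differences in the order of the members was not tested.

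Levels between genes were compared on TPM, which corrects for length. The deposited TPM did not follow CPM alike for all genes. Hdac1 had 118 and 133 CPM in SMNV 1 and SMNV 2, and 113 and 120 TPM. For Hdac8 the values were 16.7 and 19.7 CPM, and 19.1 and 25.5 TPM. The length correction may thus differ between libraries, and its part in the TPM differences between groups was not tested. In SMNV the order was Hdac2 (145 ± 4.98 TPM), Hdac1 (118 ± 4.40), Hdac3 (60.0 ± 5.36), Hdac5 (39.6 ± 2.26), Hdac7 (28.8 ± 2.47), Hdac8 (20.8 ± 4.12), Hdac6 (19.8 ± 0.985), Hdac10 (13.0 ± 0.821), Hdac4 (8.62 ± 1.59) and Hdac9 (1.22 ± 0.223; SD, n = 3). The ranges of neighbours in this order overlapped for Hdac8 and Hdac6 and for no other pair. In Dox the order was Hdac1 (167 ± 9.34 TPM), Hdac2 (142 ± 1.25), Hdac3 (71.6 ± 2.31), Hdac8 (29.4 ± 0.0306), Hdac5 (22.6 ± 3.18), Hdac6 (20.0 ± 0.682), Hdac7 (13.0 ± 1.94), Hdac10 (7.58 ± 1.46), Hdac4 (5.91 ± 1.27) and Hdac9 (2.01 ± 0.155). Here Hdac5 overlapped Hdac6, and Hdac10 overlapped Hdac4. Hdac1 and Hdac2 thus stood in opposite order in the groups. The ratio of Hdac1 to Hdac2 TPM was 0.766, 0.813 and 0.873 in SMNV 1 to 3 and 1.26, 1.13 and 1.15 in Dox 1 to 3 (exact two-sided permutation p = 0.1, the smallest that 3 against 3 libraries allow).

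Summed TPM of class I genes was 334, 356 and 342 in SMNV and 422, 403 and 406 in Dox. The class IIa sum was 82.9, 71.9 and 79.9 in SMNV and 36.7, 48.5 and 45.5 in Dox, and the class IIb sum was 33.4, 31.8 and 33.2 in SMNV and 25.6, 29.8 and 27.4 in Dox. No sum overlapped between the groups, and for each the exact permutation p was 0.1. Members of a class did not all move with its sum. Hdac6 of class IIb had 19.8 TPM in SMNV and 20.0 in Dox. Hdac9 of class IIa had 1.22 TPM in SMNV and 2.01 in Dox. Class I still made up most of the family's transcripts, at 75.6 ± 1.68% in SMNV and 85.2 ± 1.74% in Dox (SD, n = 3). Class IIa made up 17.2 ± 1.42% in SMNV and 9.05 ± 1.31% in Dox. The log2 ratio of the class IIa to the class I sum was higher in SMNV by 1.11 (1.16 on CPM sums), and that of class IIb to class I by 0.51 (0.41 on CPM sums), each with an exact permutation p of 0.1. The sum over all 10 members was 455 ± 4.67 TPM in SMNV and 481 ± 2.57 TPM in Dox.

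**Figure D3:**
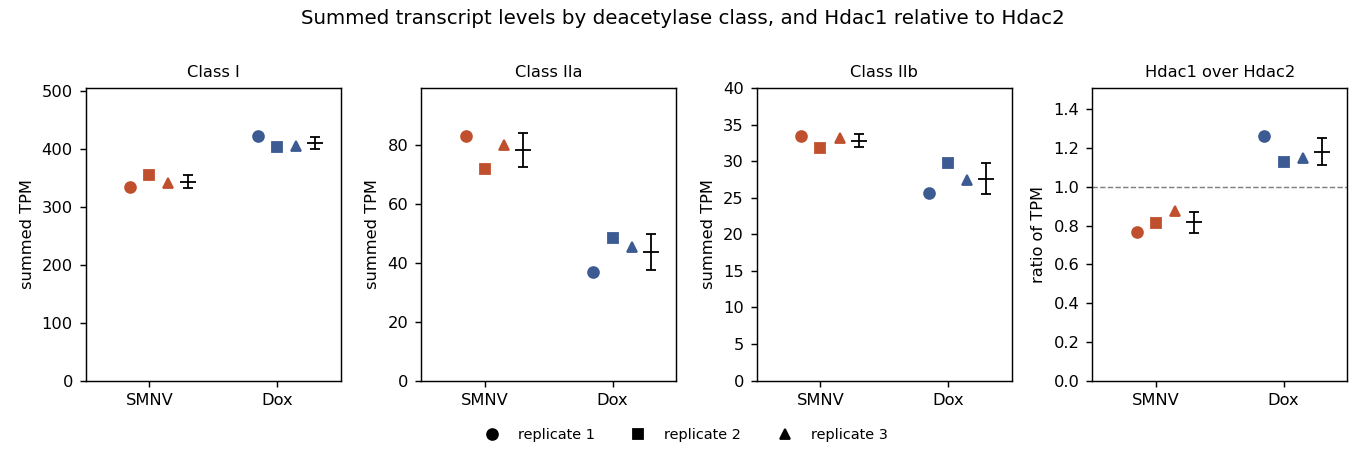
Summed TPM of class I, class IIa and class IIb deacetylase genes and the ratio of Hdac1 to Hdac2 TPM (y axes, each starting at 0) in SMNV (left) and Dox (right) libraries, with a symbol for each replicate and the mean ± SD in black (n = 3). The class I sum is lower and the class IIa and IIb sums are higher in every SMNV library than in any Dox library, and the ratio lies below 1 in SMNV and above 1 in Dox.

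The proteins that hold, steer or oppose these enzymes were taken as 14 lists (Hdac11 alone is 1 of them) with 116 different genes, of which 111 were tested. In all, 33 rose, 36 fell and 42 did not pass, with a median log2 fold change of -0.01, as for all tested genes. The counts in each list below stand beside 30.5% higher and 29.9% lower among all tested genes. Those given on the TPM scale stand beside 24.4% higher and 36.9% lower among all tested genes. Within the Hdac1 and Hdac2 complexes, 5 of the 15 Sin3 genes were higher and 3 lower, but 2 were higher and 5 lower on the TPM scale. Among them Ing1, a reader of histone H3 methylation, had a log2 fold change of 0.82 ± 0.10 and Arid4b, a scaffold-associated subunit, of -0.40 ± 0.07. The scaffold gene Sin3b changed by 0.35 ± 0.06 on counts but by -0.18 on the TPM scale, past the threshold on both. Sap18 is less certain because its symbol has 2 rows. One row changed by 1.28 ± 0.11, the other by -0.40 ± 0.12, and their sum by 0.93 ± 0.10. Of 12 NuRD genes, 3 were higher and 3 lower. Mbd3, a methyl-binding domain subunit, stood at 75.8 ± 8.03 CPM in SMNV and 24.9 ± 3.60 CPM in Dox (n = 3), a log2 fold change of 1.61 ± 0.10 (adjusted p = 1.3e-08, edgeR). Gatad2a, a bridging subunit, rose to 93.4 ± 1.79 CPM in SMNV, against 46.8 ± 6.83 CPM in Dox (n = 3). Mta1, a scaffold subunit, rose by 0.91 ± 0.10 on the log2 scale, and Rbbp4, a histone chaperone shared with Sin3, changed by -0.29 ± 0.07.

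In CoREST, 3 of 10 genes were higher and 2 lower, the lower count being 4 on the TPM scale and 1 in 8 other alternatives, DESeq2 among them. The corepressor gene Rcor2 rose by 1.29 ± 0.16 from a low level, with 12.4 ± 1.91 CPM in SMNV and 5.06 ± 0.760 CPM in Dox (n = 3). Hmg20b and Gse1, other subunits, rose by 0.98 ± 0.13 and 0.94 ± 0.17, and the zinc finger gene Zmym2 changed by -0.54 ± 0.07. In MiDAC, a mitotic Hdac1 and Hdac2 complex, Mideas and Trerf1 rose by 0.90 ± 0.15 and 0.69 ± 0.12, and Dnttip1 stood at 24.0 ± 2.38 CPM in SMNV and 21.0 ± 1.19 CPM in Dox without passing. In the NCoR corepressor complex of Hdac3, Gps2, a small core subunit, rose by 0.84 ± 0.10. The beta-transducin-like subunit Tbl1x and the Kaiso gene Zbtb33 changed by -0.47 ± 0.08 and -0.54 ± 0.10.

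**Figure D4:**
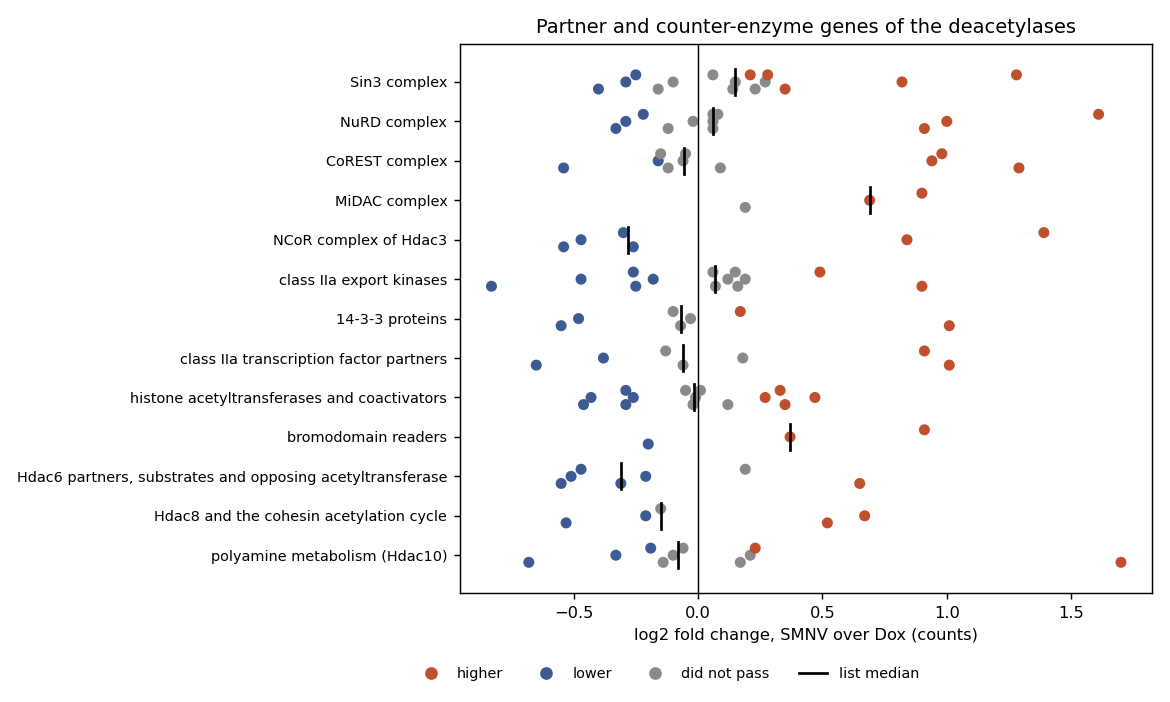
Log2 fold change on counts (x axis, SMNV over Dox) of the tested genes in 13 lists of deacetylase partners and counter-enzymes (rows), coloured by call, with the list median as a black line and points offset vertically for legibility. Most lists hold genes on both sides of 0, and the highest point is Oaz1 at 1.70.

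The genes that act on class IIa enzymes also went both ways. Among 13 tested kinases that phosphorylate class IIa enzymes for export, 2 were higher and 5 lower. The calmodulin kinase gene Camk2d stood at 153 ± 8.91 CPM in SMNV and 272 ± 23.7 CPM in Dox (n = 3), a log2 fold change of -0.83 ± 0.07. The protein kinase D genes split, with Prkd2 at 0.90 ± 0.11 and Prkd3 at -0.47 ± 0.06. Mark2, a microtubule affinity kinase gene, changed by 0.49 ± 0.09 and lost its call on the TPM scale (0.04). Of 7 genes for 14-3-3 proteins, 2 were higher and 2 lower. The abundant Ywhab and Ywhaz changed by -0.55 ± 0.07 and -0.48 ± 0.06. The rises of Sfn, at 1.69 ± 0.237 CPM in SMNV and 0.839 ± 0.266 CPM in Dox, and Ywhag (0.17 ± 0.07) were lost in fits without a library: for Sfn without SMNV 3 or Dox 1, and for Ywhag without SMNV 1, SMNV 3, Dox 1 or Dox 3. Ywhag was also lost on the TPM scale. Among 7 tested transcription factor partners, Srf and Runx1 rose by 0.91 ± 0.09 and 1.01 ± 0.15, and Mef2a and Mef2c changed by -0.65 ± 0.08 and -0.38 ± 0.15. The other 3 did not pass, among them the osteoblast factor gene Runx2 at -0.06. Mef2c, whose groups overlapped, lost its call without SMNV 2, SMNV 3, Dox 2 or Dox 3.

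Of 14 histone acetyltransferase and coactivator genes, whose products add the groups that deacetylases remove, 4 were higher (2 on the TPM scale) and 5 lower. Kat8, the histone H4 lysine 16 acetyltransferase, rose by 0.47 ± 0.07 and Kat5, the TIP60 enzyme, by 0.33 ± 0.08, while Taf1 and Hat1 changed by -0.46 ± 0.07 and -0.43 ± 0.07. Among bromodomain genes, whose products read acetylated lysines, Brd3 rose by 0.91 ± 0.10, Brd2 changed by -0.20 ± 0.06, and Brdt was below the filter.

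Other lists hold genes tied to single enzymes. Of 7 tested genes for partners and substrates of Hdac6 and its opposing acetyltransferase, 5 fell and 1 rose. The ubiquitin-dependent segregase gene Vcp stood at 516 ± 6.38 CPM in SMNV and 753 ± 71.4 CPM in Dox (n = 3), a log2 fold change of -0.55 ± 0.07. The chaperone gene Hsp90aa1 changed by -0.51 ± 0.07 and the VCP cofactor gene Plaa by -0.47 ± 0.08. Sqstm1, the p62 autophagy receptor, rose by 0.65 ± 0.08. Of 5 genes of the cohesin acetylation cycle that Hdac8 completes, Rad21, a cohesin subunit, and Esco2, an acetyltransferase of the cohesin ring, rose by 0.52 ± 0.06 and 0.67 ± 0.09. The other cohesin acetyltransferase gene, Esco1, and Smc3 changed by -0.53 ± 0.10 and -0.21 ± 0.06, and Smc3 lost its call without SMNV 2, SMNV 3 or Dox 3. Of 10 tested polyamine genes, 2 were higher and 3 lower, against 1 and 5 on the TPM scale, and 1 was higher without SMNV 3, Dox 1 or Dox 3. Oaz1, an antizyme that directs ornithine decarboxylase to degradation, stood at 209 ± 24.8 CPM in SMNV and 64.3 ± 12.1 CPM in Dox (n = 3), a log2 fold change of 1.70 ± 0.12 (adjusted p = 2.0e-08, edgeR). Amd1, which makes the aminopropyl donor, and the antizyme inhibitor gene Azin1 changed by -0.68 ± 0.08 and -0.33 ± 0.07. Oaz2, another antizyme gene, changed by -0.19 ± 0.06 and lost its call without SMNV 1, SMNV 3 or Dox 3.

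Hdac11, the class IV zinc-dependent deacetylase and no member here, was nearly silent. It had 20, 16 and 22 counts in SMNV and 10, 7 and 8 counts in Dox. The log2 fold change of 1.16 ± 0.39 passed (adjusted p = 0.0177, edgeR), but it lost its call without SMNV 1, SMNV 3, Dox 2 or Dox 3 and with DESeq2 (0.0526).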

How the data were processed

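Poly(A) RNA was sequenced in 3 SMNV and 3 Dox libraries. Per the submitters' processing notes, the tools were fastp, HISAT2 and HTSeq and the build mRatBN7.2, with no roles or versions. The authors deposited estimated counts per gene, not normalized (17.9% to 18.8% of the values above 0 have decimals), and TPM, which sum to the same total in each library, per the file headers and the values. The sources used here do not say how either was made or whether counting used strand. In the RefSeq table, Hdac4, Hdac6, Hdac7 and Hdac9 each overlap 1 other annotated non-coding gene or pseudogene, and without strand such reads cannot be told apart.

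Estimated counts were rounded. Rows passing filterByExpr were scaled with TMM factors and tested with edgeR 4.0.16 in R 4.3.3 (glmQLFit, glmQLFTest, group as the only term, two-sided). Each SE was taken as the size of the log2 fold change over the root of F. CPM were computed from counts and TMM-scaled library sizes. TPM were tested on log2(TPM + 1) with limma 3.58.1, and fold changes there understate those of low genes. Class sums used an exact permutation test over the 6 libraries. DESeq2 1.42.0 and limma-voom were among the alternatives. The edgeR steps were also run on simulated data in which far fewer genes changed than were called here. That run therefore cannot check calls or TMM scaling at the share of called genes seen here. Where a symbol had several rows, lists used the most abundant row. All members are named, and up to 4 genes of each list by the smallest p. Runx2 is named outside this rule, with its value known. Members and lists were chosen with earlier results of these data known, so lists carry no set test. Results for 3 genes of these lists are not reported here.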

Additional observations from a re-analysis of the deposited data

How the results depend on the processing

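Of 150 refits of single members (10 members under 15 alternatives), 144 kept their side of the threshold, 4 lost the call and 2 gained one. Hdac6, which did not pass in any fit, went from 0.10 on counts to -0.02 on both TPM scales. No other member changed direction. The 4 rising members were called in all 15 alternatives. The number of falling members was 3, 1 to 3 without each library in turn (1 without SMNV 3, where Hdac8 and Hdac9 lost their calls) and 4 on the TPM scales, where Hdac3 passed; the cause was not tested. Of 750 refits of 50 named partner genes, 23 lost and 1 gained the call, and Sin3b reversed on log2(TPM + 1) and log2(TPM + 0.1), at -0.18 on each, for which the cause was not tested. Calls over all genes, higher and lower, were 3841 and 3773, 3739 and 3516 with DESeq2, 4034 and 3633 with no filter, and 3078 and 4652 on log2(TPM + 1). The sources used here do not say whether the number in the library names pairs samples. Deviations from the group means correlated at 0.008, -0.116 and 0.002 between libraries of the same number. Between libraries of different numbers they correlated at -0.132 to 0.138. With 3 libraries in a group these values cannot decide whether samples were paired. With the replicate block, 3786 genes were higher and 3601 lower, 4 members were higher and 3 lower, and among the named partners Mef2c lost its call (adjusted p = 0.0567, edgeR). Not every library correlated best with its own number. Hdac9 had the fewest counts of the members, 43 to 107 a library, and the widest interval.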
